A study of Homo sapiens with 62 samples.

Results

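CDK9 inhibition was examined in T3M-4 cells, a line from a human pancreatic ductal adenocarcinoma used as a model of the basal-like subtype. The comparison was formed by 8 of the 62 libraries of the series, 4 treated for 4 h with NVP-2 and 4 treated for 4 h with its solvent DMSO. NVP-2 is a small-molecule inhibitor of the kinase CDK9. All 8 libraries shared the genotype FKBP12-F36V-FLAG-KLF5_sgEndogenousKLF5. In these cells the endogenous KLF5 gene had been disrupted with a guide RNA and replaced by a lentiviral copy carrying a degron tag, and the cells were selected with drugs as a population, with no cloning step described. No degrader was given in either group, and KLF5 protein was not measured in these libraries. Each group held 2 libraries from experiment 1 and 2 from experiment 2, which the labels also name batch 1 and batch 2, and each batch held both groups. The libraries within an experiment are numbered 1.1 and 1.2, or 2.1 and 2.2. The study calls its SLAM-seq samples biological replicates, and no label says whether the libraries of an experiment came from separate cultures, so the p-values measure the spread between these libraries, which may in part be technical. Values below follow the order 1.1, 1.2, 2.1, 2.2.

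CDK9 with cyclin T1 or T2 forms P-TEFb, the kinase that releases RNA polymerase II from its pause near the promoter and allows productive elongation. When P-TEFb is blocked, few new messages are completed and the messages already present decay at their own rates. Transcripts with short lifetimes, such as those of immediate-early genes, of MYC and of the anti-apoptotic gene MCL1, are known to be depleted first. SLAM-seq reads both quantities from the same library. Cells were fed 4-thiouridine for 2 h within the 4 h of treatment, the RNA was alkylated, and the 3′ end libraries then carried T>C conversions in reads of RNA made during labelling. The T>C reads are taken as the measure of new RNA and all reads count the whole pool. Reads with T>C conversions that do not come from labelling are counted as well. No library without 4-thiouridine was analysed here, so their part in any share or fold change below could not be measured. In bulk samples such as these, fewer cells and less RNA per cell cannot be told apart, and no spike-in was used.

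Totals of all reads ran from 127420559 to 244524608 per library. Totals of T>C reads ran from 17034415 to 24012727 in DMSO and from 3714015 to 4982006 after NVP-2. The line label was checked against markers. The 10 basal-like markers together held 3189 to 5273 CPM (reads scaled to the size of the library) in DMSO and 2956 to 5783 after NVP-2, and all 10 were tested. The 11 classical markers held 32 to 38.4 and 28.7 to 36.2 CPM. Markers of fibroblasts held at most 9.72 CPM, those of leukocytes at most 3.08, those of endothelial cells at most 1.24 and those of acinar and endocrine cells at most 0.0337 in any library.

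The first question was how far the labelled reads fell. The labelled read share, the percentage of a library's reads that carried T>C conversions, was 14.1, 13.4, 11.1 and 11.1% in the DMSO libraries and 2.22, 2.8, 1.8 and 2.12% after NVP-2. The groups did not overlap. The means were 12.4% ± 1.56 (SD, n = 4) and 2.24% ± 0.417 (SD, n = 4). The share was 5.54 times lower, a difference of −10.2 percentage points (exact two-sided permutation test, p 0.0286, the smallest p that 4 against 4 libraries allow). The difference was −11.2 points in experiment 1 and −9.11 points in experiment 2, and permuting within experiments gave an exact p of 0.0556, the smallest that this scheme allows. Taken per gene, the median share over 11217 genes with at least 100 reads in every library was 14.0% to 19.5% in DMSO and 1.11% to 2.89% after NVP-2.

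**Figure D1:**
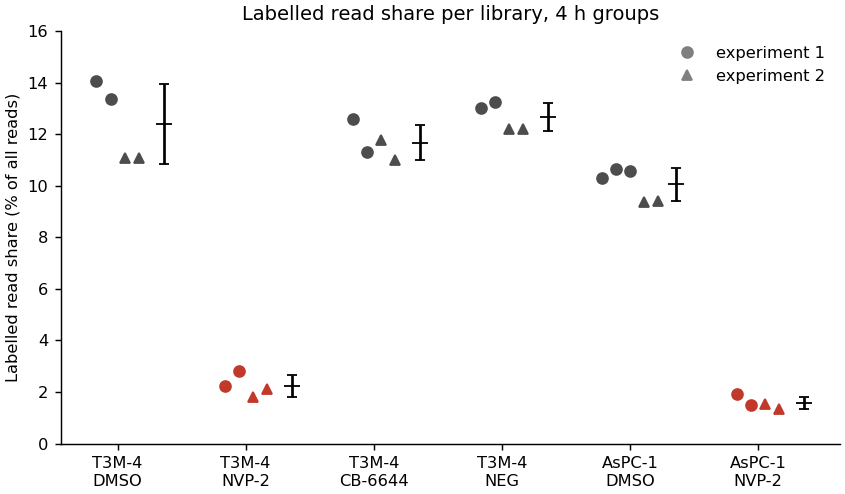
Labelled read share in percent of all reads (vertical axis) for each library of the 4 h groups of T3M-4 and AsPC-1; points are libraries, their shape gives the experiment number within the line, and the bar beside each group is the mean with its SD. The 4 T3M-4 libraries after NVP-2 lie between 1.8% and 2.8%, below every DMSO, CB-6644 and NEG library of the line.

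T>C reads were lower in most genes. With the T>C counts set against the all-reads size of each library after TMM, which keeps the global fall visible, 10955 of 12242 genes tested were called lower (edgeR quasi-likelihood test, Benjamini-Hochberg adjusted p under 0.05, 89.5%) and 13 higher (0.106%). The median log2 fold change was −3.13, which is 8.73 times fewer T>C reads. With T>C counts scaled within the T>C reads, as the study's own tests of these counts were, the values are relative to the bulk of genes. On that scale 2216 genes were called lower (18.1%) and 1763 higher (14.4%), with a median of −0.23. Of the 9845 genes tested on both kinds of read and not called in all reads, 8736 were lower in T>C reads scaled by all reads.

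The 10 genes with the largest relative loss of T>C reads, among those called with a mean of at least 10 CPM in the higher group and the same sign in both experiments, were ZNF830, LIPT2, ALKBH4, ZNF747, TMEM186, PPAN, ZBTB6, DDIT3, ZNF574 and KCTD11. In ZNF830, a zinc finger gene, 78.3% of the reads in DMSO carried T>C conversions, against 0 of 366 reads over the 4 NVP-2 libraries, which allows a share of up to 0.82% (counting error only). DDIT3, which encodes the stress-induced factor CHOP, went from 54% to 0.664%, and PPAN, a ribosome biogenesis gene, from 37.8% to 0.307% (0.187% without NVP-2 library 2.1). ZNF574 went from 66.7% to 3.36%. In all reads these genes fell by 3.13 (ZNF830), 1.74 (DDIT3) and 3.83 (ZNF574) on the log2 scale. MYC, the growth-promoting transcription factor, went from 89.3% to 24.8% labelled, and in T>C reads scaled by all reads its log2 fold change was −5.75 (edgeR adjusted p 0.000109).

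All reads show which transcripts were reduced in the pool after 4 h, relative to the bulk of genes. Of 15653 genes tested with the experiment as a block, 1544 were called lower (9.86%) and 932 higher (5.95%), with a median log2 fold change of 0.06 over all genes. Of the lower calls, 905 had a log2 fold change of −1 or less, 319 of −2 or less and 102 of −3 or less, whereas 66 of the higher calls reached 1. All 1544 lower calls had the same sign in both experiments. They were called in a fit of both experiments, which favours genes of like sign, so this is no separate support. With the libraries of an experiment summed and no block, which leaves 2 against 2, no gene passed, with 1188 at an unadjusted p under 0.05, and with the block 1408 were lower and 637 higher. In 1218 of the lower calls every NVP-2 library lay below every DMSO library, against 1504 such genes among all tested (9.61%), and in 256 of the higher calls every NVP-2 library lay above, against 591 among all tested (3.78%). Scaled by the summed reads of ribosomal protein, respiratory chain and proteasome genes instead, 2567 genes were lower and 98 higher, with a median of −0.19, and by library totals 2002 were lower and 189 higher, with a median of −0.09. The higher calls below therefore hold for the TMM scaling unless another is named.

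The 15 genes with the lowest fold change by the same rule included MIR17HG, ADM, DUSP6, MYC, PRDM1, IER5, SGK1, TIPARP, PLK2, CLK1, CCN1, KLF10, SLC25A25 and NR4A1, from −5.15 to −2.84 on the log2 scale. In all 15 every NVP-2 library lay below every DMSO library. The lowest was MIR17HG (chromosome 13, 91347686 to 91397592, plus strand, GRCh38), the long noncoding host transcript of the miR-17-92 cluster. It had 57.8, 50.1, 51.3 and 48.1 CPM in the DMSO libraries and 1.69, 1.31, 1.75 and 1.05 CPM after NVP-2 (log2 fold change −5.15 with SE 0.19, edgeR adjusted p 3.78e-06). The levels of the NVP-2 libraries of both experiments lay close to each other. Its labelled share went from 65.8% to 14.1% and varied widely after NVP-2, with 13.5, 2.52, 24.7 and 7.65% in the 4 libraries and 8.38% without library 2.1.

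The mature products of this host are shown because the counted reads are of the host transcript alone and the miRNAs themselves were not measured. The sequences are those of RefSeq (GRCh38.p14), 5′ to 3′, with the seed, bases 2 to 8, in capitals. The first pair shares a seed, the second pair shares another, and the remaining pair differ in theirs.
hsa-miR-17-5p: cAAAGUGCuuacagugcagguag
hsa-miR-20a-5p: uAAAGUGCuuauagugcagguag
hsa-miR-19a-3p: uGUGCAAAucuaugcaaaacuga
hsa-miR-19b-3p: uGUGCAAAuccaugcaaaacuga
hsa-miR-18a-5p: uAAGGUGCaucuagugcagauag
hsa-miR-92a-3p: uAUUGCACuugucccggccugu

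ADM (adrenomedullin, a secreted peptide) had 48.5, 47.2, 20.8 and 20.5 CPM in the DMSO libraries and 4.67, 2.09, 0.518 and 0.0992 CPM after NVP-2 (log2 fold change −4.81 with SE 0.58, edgeR adjusted p 0.000639). The groups were separate, and the loss was larger in experiment 2 (−6.09) than in experiment 1 (−3.82). DUSP6, a phosphatase that inactivates ERK, had 45.3, 48.7, 43.3 and 43.9 CPM in the DMSO libraries and 4.92, 4.68, 1.57 and 1.3 CPM after NVP-2 (log2 fold change −4.09 with SE 0.32, edgeR adjusted p 9.01e-05). MYC had 107, 91.2, 232 and 211 CPM in the DMSO libraries and 17.3, 15.3, 12.7 and 8.47 CPM after NVP-2 (log2 fold change −3.50 with SE 0.36, edgeR adjusted p 0.000327). DMSO libraries of MYC were higher in experiment 2 and NVP-2 libraries lower, and the groups did not overlap in either experiment. KLF10, a zinc finger factor, had 22, 26.1, 40.4 and 39.1 CPM in the DMSO libraries and 4.77, 5.8, 3.34 and 2.81 CPM after NVP-2 (log2 fold change −2.94 with SE 0.29, edgeR adjusted p 0.000271). Others in this group were PRDM1 (−3.44), a transcriptional repressor, PLK2 (−3.19), a polo-like kinase, CLK1 (−3.13), a kinase of splicing factors, and NR4A1 (−2.84), an orphan nuclear receptor.

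**Figure D2:**
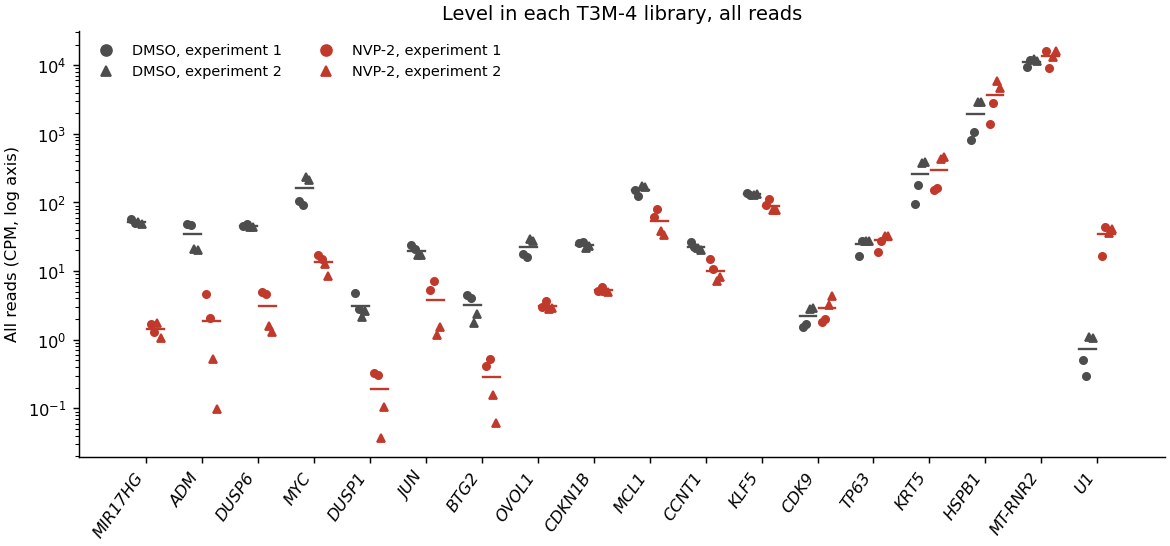
All reads in CPM (vertical log axis) of 18 genes in each of the 8 T3M-4 libraries; circles are experiment 1, triangles experiment 2, grey DMSO, red NVP-2, and horizontal lines group means. MIR17HG sits at 51.8 CPM in DMSO and 1.45 after NVP-2, whereas CDK9, TP63, KRT5 and MT-RNR2 overlap between the groups and U1 lies higher after NVP-2.

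Loss in all reads was set against turnover measured in other libraries. The 4 T3M-4 libraries treated with the inactive degrader analogue dTAGv-1-NEG (NEG) belong to neither group, and the labelled share of a gene there is high where much of its pool is renewed within the 2 h of labelling. Over 12523 genes with at least 400 reads in the NEG libraries, the median log2 fold change after NVP-2 went down in every decile of the share, from 0.32 in the first decile (shares up to 6.2%) through 0.13 in the fifth to −0.31 in the ninth and −1.17 in the last (shares of 45.4% and above). In the last decile 886 of 1253 genes (70.7%) were called lower and 7 higher, and in the first decile 0 were called lower and 223 higher. The last decile stood at −0.96 in experiment 1 and −1.46 in experiment 2. Across genes Spearman's rho was −0.611; genes share libraries and are not independent, so this is a description. Of the 929 genes with a NEG share of at least 50%, 706 were lower, 6 higher, and the median was −1.34.

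**Figure D3:**
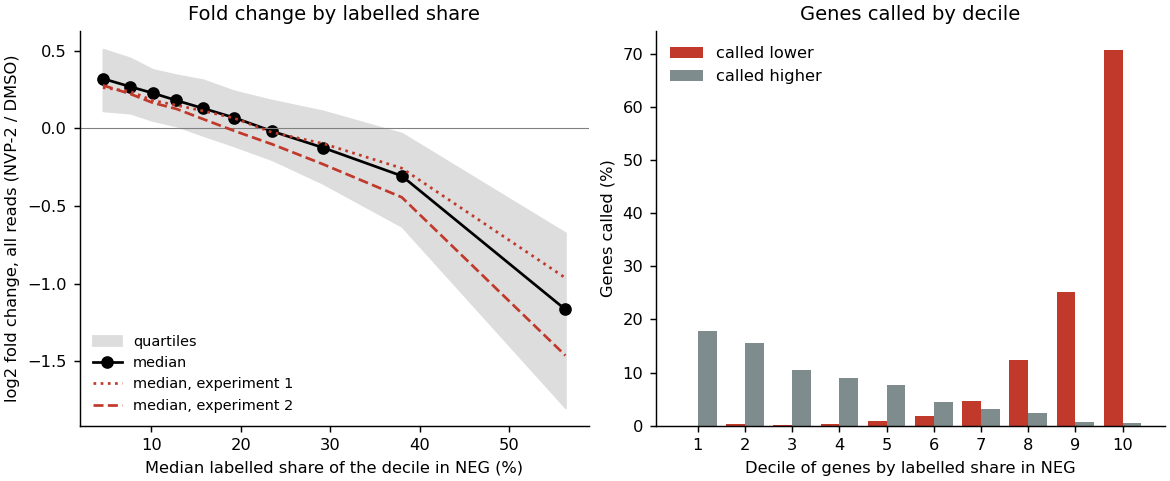
Left, log2 fold change in all reads (vertical axis) against the median labelled share in NEG libraries of each decile of 12523 genes, with the median (black), the quartiles (grey) and the medians of each experiment (red). Right, percentage of genes called lower and higher in each decile; 70.7% of the last decile were lower.

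AU-rich elements in the 3′UTR are binding sites of decay factors, and they were looked for in the annotated 3′UTR of the canonical transcript (GENCODE v44), which 13679 of the 15653 genes had. The pentamer ATTTA and the nonamer TTATTTATT, which holds the pentamer, were searched on the transcript strand in 11054 genes at 1 CPM or more. The nonamer was in 13.4% of the decile with the lowest fold changes, 9.54% of all and 5.52% of the decile with the highest. The pentamer was in 81.4%, 73.8% and 57.5%. The lengths differed as well, and the median 3′UTR had 1429.5 bases in the lowest decile, 1349 in all and 905.5 in the highest. Per kilobase of 3′UTR the nonamer occurred 0.0942, 0.0659 and 0.047 times and the pentamer 2.36, 2.3 and 1.97 times. The pentamer rate was not highest in the lowest decile. It was 2.42 in the second, 2.46 in the third and 2.43 in the fifth, and below 2.36 in all remaining deciles. The base composition differed too, with a median A and T content of 59.9% in the lowest decile, 58.0% in all and 50.1% in the highest. The genes of the lowest decile were also short, with a median gene length of 18585 bases against 34458.5. These are descriptions, with no test.

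Of the 15 genes of lowest fold change, 12 were searched, 12 held the pentamer and 3 the nonamer. MIR17HG, MYC and KLF10 were not searched, so nothing is said of them here. Of 26 further members of the immediate-early, AP-1, ERK feedback and NF-kB lists called lower at −2 or less, 23 held the pentamer and 4 the nonamer. The 7 stretches below are shown because they are the first nonamer in each of these 3′UTRs (GRCh38, strand of the gene, 5′ to 3′, the nonamer in capitals). A match is a description and not a site.
IER5 (chr1:181092445-181092469, plus strand): gtcttcctTTATTTATTtatttatt
TIPARP (chr3:156705517-156705541, plus strand): gattctatTTATTTATTtacgtttg
PLK2 (chr5:58454068-58454092, minus strand): taaactttTTATTTATTacagccca
FOS (chr14:75282062-75282086, plus strand): tttttaatTTATTTATTaagatgga
ZFP36 (chr19:39409198-39409222, plus strand): tgacgactTTATTTATTctaatatg
DUSP1 (chr5:172768645-172768669, minus strand): gctggtccTTATTTATTtaacttca
TNFAIP3 (chr6:137882300-137882324, plus strand): aattcactTTATTTATTttattaca

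Gene lists, some of which share members, were then described by counts and medians, beside the same over all genes (9.86% lower, 5.95% higher, median 0.06). Immediate-early genes, whose transcription follows a stimulus within minutes, fell together. Outside the AP-1 list, 24 of 26 tested members were lower, none higher, with a median of −2.37, and the exceptions were SRF (−0.15) and ARC (−1.20), which were not called. ZFP36, which encodes the decay factor tristetraprolin, had 4.73, 6.23, 6.26 and 6.18 CPM in the DMSO libraries and 0.966, 1.24, 0.241 and 0.329 CPM after NVP-2 (log2 fold change −3.33 with SE 0.42, edgeR adjusted p 0.000884). EGR1, a zinc finger factor, had 2.66, 2.55, 2.04 and 2.4 CPM in the DMSO libraries and 0.469, 0.757, 0.838 and 0.905 CPM after NVP-2 (log2 fold change −1.72 with SE 0.24, edgeR adjusted p 0.00144). Its labelled share went from 72.1% to 40.1%, and in the 2 NVP-2 libraries of experiment 2 it was 54.7% and 58.2%. Of the AP-1 factors, the FOS, JUN, ATF and MAF proteins that bind DNA as dimers, 10 of 12 were lower and none higher (median −1.37). JUN had 23.7, 20.7, 17.4 and 17.4 CPM in the DMSO libraries and 5.4, 7.23, 1.17 and 1.53 CPM after NVP-2 (log2 fold change −2.73 with SE 0.36, edgeR adjusted p 0.0011), and FOS had 1.92, 1.31, 0.953 and 0.603 CPM in the DMSO libraries and 0.532, 0.227, 0.0787 and 0.136 CPM after NVP-2 (log2 fold change −2.46 with SE 0.40, edgeR adjusted p 0.00319). The groups were separate for ZFP36, EGR1, JUN and FOS. The smallest called changes were those of MAFG (−0.70), ATF3 (−0.66) and JUND (−0.51), and the call of JUND was lost without any of the 4 libraries of experiment 2, that of ATF3 without any of 6 libraries.

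The feedback genes of the ERK pathway had the lowest list median, −2.58. Of the 13 tested, 11 were lower and none higher. They comprise phosphatases that switch off MAP kinases and the Sprouty and SPRED adaptors. DUSP1 had 4.76, 2.81, 2.15 and 2.59 CPM in the DMSO libraries and 0.326, 0.309, 0.037 and 0.105 CPM after NVP-2 (log2 fold change −4.24 with SE 0.41, edgeR adjusted p 0.000234), and DUSP2, a further phosphatase, stood at −5.58. The Sprouty genes SPRY1, SPRY2 and SPRY4 stood at −2.88, −3.84 and −2.66, while SPRED1 (−0.13) and SPRED2 (−0.46) were not called. Of the EGF ligands and receptors, 5 of 11 were lower and 2 higher. The lower ones were ligands, with HBEGF at −1.79, AREG at −1.25 and EREG at −0.77, and the receptor EGFR stood at 0.00 and was not called.

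**Figure D4:**
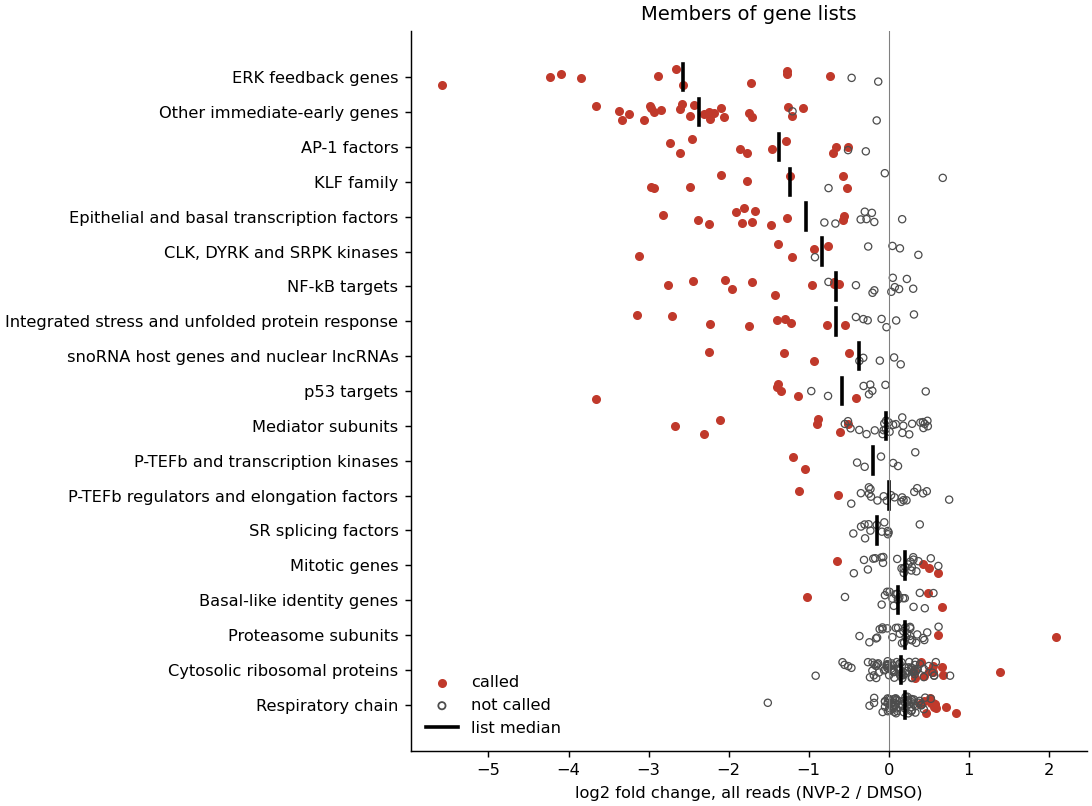
Log2 fold change in all reads (horizontal axis) of each tested member of 19 gene lists; red points were called at an adjusted p under 0.05, open points were not, and black bars are list medians. ERK feedback, immediate-early and AP-1 genes lie to the left, with medians down to −2.58, and ribosomal, respiratory chain and proteasome genes lie near 0.

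Among RNA decay factors 9 of 21 were lower and 2 higher (median −0.12). The lower ones included the tristetraprolin family (ZFP36 above, ZFP36L1 at −1.21, ZFP36L2 at −1.75) and the BTG and TOB proteins that recruit the CCR4-NOT deadenylase. BTG2 had 4.53, 4.02, 1.76 and 2.37 CPM in the DMSO libraries and 0.412, 0.519, 0.157 and 0.062 CPM after NVP-2 (log2 fold change −3.65 with SE 0.33, edgeR adjusted p 0.000167). TOB1 stood at −1.62 and TOB2 at −1.26. Of the CCR4-NOT subunits themselves CNOT4 was lower (−0.93), while CNOT1 (0.18) and the exonuclease XRN1 (−0.12) were not called. The 2 called higher, CNOT6L and PAN2, lost their calls when scaled by library totals or by stable gene lists, and also without any of 7 single libraries (CNOT6L, all but DMSO 1.1) or of 3 (PAN2, DMSO 1.1 and 2.2 and NVP-2 2.1). NF-kB targets were lower in 10 of 20, none higher (median −0.66). NFKBIA, the inhibitor that the pathway induces against itself, had 418, 348, 342 and 357 CPM in the DMSO libraries and 73.1, 93.4, 36.3 and 34.1 CPM after NVP-2 (log2 fold change −2.76 with SE 0.23, edgeR adjusted p 0.000126). TNFAIP3, a further feedback inhibitor, stood at −2.04, the cytokines IL1A at −2.45, CXCL2 at −1.96 and LIF at −1.70, while CXCL1 (−0.20), CXCL3 (0.03) and CCL20 (0.07) were not called. Of the YAP-TEAD targets, among them the secreted factors CCN1 (−3.06) and CCN2 (−2.24), 7 of 12 were lower and none higher (median −0.76).

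Of P-TEFb itself the kinase was not called and both cyclins were lower. CDK9 had 1.53, 1.72, 2.76 and 2.94 CPM in the DMSO libraries and 1.81, 2.03, 3.2 and 4.41 CPM after NVP-2 (log2 fold change 0.33 with SE 0.16, edgeR adjusted p 0.199), and the groups overlapped. Its labelled share went from 34.7% to 0.575%. CCNT1, its main cyclin, had 26.3, 22.8, 21.7 and 20.3 CPM in the DMSO libraries and 14.9, 10.6, 7.09 and 8.16 CPM after NVP-2 (log2 fold change −1.20 with SE 0.16, edgeR adjusted p 0.0011), and CCNT2 had 13.4, 11.7, 11.9 and 11.7 CPM in the DMSO libraries and 7.37, 8.41, 3.32 and 5.45 CPM after NVP-2 (log2 fold change −1.05 with SE 0.20, edgeR adjusted p 0.0083). In both cyclins every NVP-2 library lay below every DMSO library. The related elongation kinases CDK12 (−0.30) and CDK13 (−0.40) and their cyclin CCNK (−0.10) were not called, so 2 of 8 tested kinases and cyclins were lower and none higher. Of 22 regulators and elongation factors 2 were lower, MEPCE (−0.63), a methylase of 7SK RNA, and the elongation factor ELL (−1.12), whose call was lost without DMSO library 1.1, 2.1 or 2.2. HEXIM1, which holds P-TEFb inactive on 7SK RNA, had 12.2, 13.4, 17.2 and 15 CPM in the DMSO libraries and 9.06, 12.5, 12.2 and 11.4 CPM after NVP-2 (log2 fold change −0.35 with SE 0.13, edgeR adjusted p 0.107), and the groups overlapped.

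Of the anti-apoptotic BCL2 family 2 of 5 were lower and none higher. MCL1 had 152, 124, 172 and 169 CPM in the DMSO libraries and 62, 79.3, 38.6 and 33.2 CPM after NVP-2 (log2 fold change −1.61 with SE 0.25, edgeR adjusted p 0.00264), with separate groups and a larger loss in experiment 2 (−2.35) than in experiment 1 (−0.96). BCL2L1, which encodes BCL-XL, stood at −0.54 (edgeR adjusted p 0.0207), a call lost without DMSO library 2.1, DMSO 2.2 or NVP-2 2.2, and BCL2 (−0.08) and BCL2A1 (0.23) were not called. Of the pro-apoptotic genes 2 of 11 were lower and 1 higher. PMAIP1, which encodes NOXA, an antagonist of MCL1, had 18.1, 23.9, 9.37 and 11.4 CPM in the DMSO libraries and 8.95, 10.7, 3.56 and 2.98 CPM after NVP-2 (log2 fold change −1.38 with SE 0.17, edgeR adjusted p 0.000744), and BBC3, which encodes PUMA, stood at −1.34. The groups of PMAIP1 overlapped between experiments and not within them. BCL2L11 (−0.26), which encodes BIM, and BAX (−0.21) were not called. In the MYC network the antagonists MXD1 (−1.38) and MNT (−0.79) were lower with MYC itself and the partner MAX (0.20) was not called, which made 3 of 11 lower and 1 higher.

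Transcription factors of the epithelial and basal programme and the genes of that identity were described side by side. Of 20 such factors 12 were lower, none higher, with a median of −1.04, whereas of 20 basal-like identity genes 1 was lower and 2 higher, with a median of 0.11. The difference between the lists was not tested. OVOL1, a zinc finger repressor of epithelia, had 17.9, 15.9, 29.2 and 27.6 CPM in the DMSO libraries and 3.0, 3.68, 2.81 and 2.89 CPM after NVP-2 (log2 fold change −2.83 with SE 0.21, edgeR adjusted p 6.48e-05), and ZNF750, a factor of epidermal differentiation, had 1.2, 1.49, 1.66 and 1.36 CPM in the DMSO libraries and 0.229, 0.508, 0.102 and 0.298 CPM after NVP-2 (log2 fold change −2.39 with SE 0.43, edgeR adjusted p 0.00583). Further members stood at −2.25 (FOXQ1), −1.91 (GATA6), −1.84 (FOXA2), −1.81 (TFAP2C), −1.71 (FOXA1), −1.67 (SOX2), −1.48 (GRHL3) and −1.27 (TFAP2A). TP63, which encodes the basal master factor p63, had 16.6, 27.9, 27.1 and 27.4 CPM in the DMSO libraries and 19.2, 27.8, 32.5 and 32.3 CPM after NVP-2 (log2 fold change 0.17 with SE 0.18, edgeR adjusted p 0.573), and the groups overlapped. Its labelled share went from 22.2% to 4.43%, and its T>C reads fell (log2 fold change in T>C reads scaled by all reads −2.27, edgeR adjusted p 0.000138) while the pool was not called. GRHL2 (−0.18) and EHF (−0.30) were not called either.

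Of the KLF family of zinc finger factors 8 of 11 were lower and none higher (median −1.24), with KLF2 at −2.96, KLF4 at −2.49, KLF6 at −2.09 and KLF11 at −1.77. KLF5 reads were counted in the 3′UTR of the gene on chromosome 13. The paper describes the lentiviral copy as a cDNA construct and does not say whether it holds this 3′UTR. The values may therefore be those of the disrupted gene and not of the copy, which was not tested. KLF5 had 138, 129, 128 and 131 CPM in the DMSO libraries and 90.4, 112, 78.2 and 76.9 CPM after NVP-2 (log2 fold change −0.57 with SE 0.12, edgeR adjusted p 0.0119). The groups were separate, and the call was lost without any of the 4 libraries of experiment 2. Its labelled share went from 46.8% to 3.36%. Among basal-like identity genes KRT5, the keratin that marks basal cells, had 95, 183, 374 and 395 CPM in the DMSO libraries and 154, 165, 425 and 457 CPM after NVP-2 (log2 fold change 0.20 with SE 0.18, edgeR adjusted p 0.496), and the groups overlapped. LAMB3, a laminin chain, was the lower one (−1.02), and COL17A1 (0.66) and LY6D (0.49) were the higher ones, both lost when scaled by stable gene lists. The call of LY6D was also lost with library totals and without any of 5 single libraries (DMSO 1.2, 2.1 and 2.2, NVP-2 2.1 and 2.2).

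Of the integrated stress and unfolded protein response genes 9 of 16 were lower, none higher (median −0.66). CHAC1, an enzyme of glutathione degradation, had 4.59, 5.04, 8.31 and 7.41 CPM in the DMSO libraries and 0.635, 0.889, 0.468 and 0.80 CPM after NVP-2 (log2 fold change −3.15 with SE 0.27, edgeR adjusted p 0.00013), with separate groups. DDIT4, an inhibitor of mTORC1, stood at −2.71 and DNAJB9, a chaperone of the endoplasmic reticulum, at −1.30, while the chaperone HSPA5 (−0.03) was not called. CDKN1B, the CDK inhibitor p27, had 25.4, 26.3, 21.6 and 23.6 CPM in the DMSO libraries and 5.2, 5.84, 5.18 and 5.03 CPM after NVP-2 (log2 fold change −2.19 with SE 0.11, edgeR adjusted p 1.20e-05), alike in both experiments (−2.23 and −2.24). Of the p53 targets 6 of 14 were lower and none higher, MDM2 (−0.25) not among them. Of 27 mitotic genes 1 was lower and 3 higher (median 0.21), and cyclin D1 (CCND1, 0.02) and cyclin B1 (CCNB1, −0.09) were not called.

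Of 33 Mediator subunits 7 were lower and none higher, with a median of −0.04. MED26, the subunit that recruits elongation factors, had 5.16, 4.51, 2.69 and 3.29 CPM in the DMSO libraries and 1.16, 0.994, 0.259 and 0.391 CPM after NVP-2 (log2 fold change −2.67 with SE 0.26, edgeR adjusted p 0.000234), with separate groups, and MED18 (−2.30) and MED9 (−2.10) were lower as well, while MED1 (0.09), MED12 (0.01) and CDK8 (0.05) were not called. Of the CLK, DYRK and SRPK kinases 5 of 10 were lower, CLK1 the most (−3.13), and of 13 SR splicing factors none was lower or higher in edgeR (median −0.15). Of 17 listed snoRNA host and nuclear long noncoding genes 9 were tested, and 4 of these were lower. Those not tested were snoRNA hosts, among them GAS5 and SNHG1, so the count does not describe that class. SNHG3 had 25.7, 33.3, 27.9 and 32.3 CPM in the DMSO libraries and 5.18, 6.34, 7.89 and 5.82 CPM after NVP-2 (log2 fold change −2.24 with SE 0.15, edgeR adjusted p 4.75e-05), while MALAT1 (−0.11) and NEAT1 (−0.32) were not called.

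Genes of bulk cell functions were called higher or not at all, and those calls depend on the scaling. Over all genes 5.95% were called higher and 9.86% lower, and the proteasome count below lies near the first of these. Of 79 cytosolic ribosomal proteins 10 were called higher and none lower (median 0.16), of 74 respiratory chain genes 13 and none (median 0.21), of 31 proteasome subunits 2 and none (median 0.21), and of 15 glycolytic enzymes 5 and none (median 0.24). Scaled by library totals, 1, 3, 0 and 0 of these were higher and 0, 0, 1 and 1 lower. Scaled by the stable lists, 1, 0, 0 and 0 were higher and 3, 0, 2 and 1 lower. That scaling uses the summed reads of the ribosomal, respiratory chain and proteasome genes themselves, which holds their sum level between libraries. It therefore cannot test calls within those lists. The labelled shares of all these lists in DMSO were low, with medians of 5.25%, 5.93%, 8.94% and 6.19%. For ERK feedback genes the median was 74.4% and for immediate-early genes 69.6%. HSPB1, a small heat shock protein, had 821, 1052, 2947 and 2913 CPM in the DMSO libraries and 1386, 2799.9, 5918 and 4669.8 CPM after NVP-2 (log2 fold change 1.01 with SE 0.21, edgeR adjusted p 0.011). It was higher within each experiment, and the groups overlapped across experiments.

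By the rule of at least 10 CPM in the higher group, the 3 largest increases in all reads were those of U1, RNVU1-25 and SNORD13. U1, the spliceosomal RNA whose 3 gene records of that name were summed, had 0.505, 0.297, 1.11 and 1.07 CPM in the DMSO libraries and 16.9, 43.2, 35.7 and 41.5 CPM after NVP-2 (log2 fold change 5.64 with SE 0.38, edgeR adjusted p 4.29e-05), and every NVP-2 library lay above every DMSO library. RNVU1-25, a U1 variant, stood at 4.99 and SNORD13, a small nucleolar RNA, at 4.17. The U1 genes are near-identical, so it is uncertain which of them a read came from, and the libraries were primed on poly(A). In U1 84% of the few reads in DMSO and 74.2% of the 25173 reads after NVP-2 carried T>C conversions. How many of these come from labelling could not be measured, as no library without 4-thiouridine was analysed here. In T>C reads the 10 highest by the rule were U1, RNVU1-25, SNORD3B-1, PRMT5-DT, RNU5B-1, RNA5SP84, RPS2P5, DYNLL1P2, TMSB4XP4 and RNA5SP304, of which 6 are small nuclear, nucleolar or 5S RNA genes or pseudogenes and 3 are pseudogenes of messages. The T>C groups of RPS2P5 and DYNLL1P2 overlapped. Of the DYNLL1P2 reads, 94.7% in DMSO and 93.6% after NVP-2 carried T>C conversions. For TMSB4XP4 these shares were 54.3% and 44.9%. How many of these T>C reads come from labelling could not be measured either, so their ranks are no measure of new RNA. RPS2P5 had 9.77, 13.3, 8.39 and 10.2 T>C CPM in DMSO and 913, 4.98, 724 and 15.9 after NVP-2, so its value rests on 1 library of each experiment. RN7SK, the scaffold RNA of inactive P-TEFb, had 0.298, 0.19, 0.296 and 0.304 CPM in the DMSO libraries and 0.492, 0.602, 0.722 and 0.887 CPM after NVP-2 (log2 fold change 1.29 with SE 0.32, edgeR adjusted p 0.0237). Its groups were separate at these low levels, and the call was lost when scaled by stable gene lists and without any of 5 single libraries. The other genes among the 15 highest in all reads were FAM153CP (1.63), RNU4ATAC, PXN-AS1, PRPF40B, RPL21P4, ATG16L2, TMEM63B, HSPB1, TAF1, HYI, MAP2K2 and MTA3 (0.96). Of these 12 the groups were separate for FAM153CP and MAP2K2 and overlapped for the others. The calls of RNU4ATAC and RPL21P4 were lost without any of 6 single libraries (all but NVP-2 1.1 and 1.2), that of PRPF40B without DMSO 1.1, 1.2 or 2.2 or NVP-2 2.1, that of ATG16L2 without DMSO 1.1, 1.2 or 2.2, and those of TAF1 and HYI without DMSO 1.1 or 1.2.

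Some transcripts kept their label. Over 7134 genes with at least 5% labelled reads and 10 T>C CPM in DMSO, the median gene kept 12.1% of its DMSO share after NVP-2, and 245 (3.43%) kept at least 50%. Transcripts of the mitochondrial genome, which has its own polymerase, were among them (13 of the 13 that met both limits). Of the 15 members of the mitochondrial list the 2 tested were the ribosomal RNAs, and no mitochondrial message was tested. MT-RNR2 was labelled in 5.54, 5.81, 4.84 and 5.26% of reads in DMSO and 4.53, 3.17, 3.28 and 3.33% after NVP-2, and MT-RNR1 went from 6.61% to 4.58%. In T>C reads scaled by all reads their log2 fold changes were −0.28 (MT-RNR2, edgeR adjusted p 0.337) and −0.34 (MT-RNR1, edgeR adjusted p 0.184), against a median of −3.13 over all genes. With 14 mitochondrial transfer RNA genes, added after their values were seen, all 16 mitochondrial genes tested kept between 68.3% and 104% of their share (median 77.3%).

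Among nuclear genes the labelled share of KRT5 went from 11.3% to 8.05%, that of KRT17 from 15.5% to 9.3% and that of EPCAM from 11.9% to 9.27%, with log2 fold changes in T>C reads scaled by all reads of −0.24, −0.44 and −0.17, none of them called. KRT5 was labelled in 2.67, 15.6, 5.96 and 9.56% of reads in the 4 NVP-2 libraries, so this share varied widely between them. TMEM63B, an ion channel gene, went from 47.9% to 42.8%. No library without 4-thiouridine was analysed here, so T>C reads of these genes that do not come from labelling could not be measured. Other keratins of the same list lost their label, KRT6A from 10.4% to 0.946% and KRT16 from 18.4% to 1.24%.

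The fold change of T>C reads was also set against gene length. This description was added after the data were seen. Over 8211 genes with at least 10 T>C CPM in the higher group, the median log2 fold change in T>C reads scaled by all reads was −3.51 in the second decile of gene length (median 8.26 kb), −3.15 in the sixth (40 kb) and −2.34 in the last (236 kb). The shortest genes, with a median of 3.16 kb, stood at −3.19. The median labelled share after NVP-2 was 1.35% in the second decile and 4.44% in the last, from 14.5% and 21.1% in DMSO. In all reads the medians lay between 0.05 and 0.10 in every decile.

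**Figure D5:**
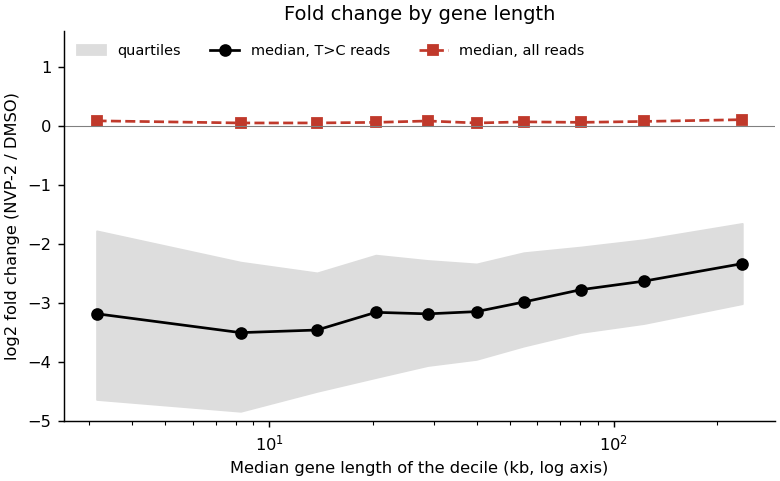
Median log2 fold change (vertical axis) in T>C reads scaled by all reads (black, with quartiles in grey) and in all reads (red) against the median gene length in kb (log axis) of each decile of genes. The T>C median goes from −3.51 in the second decile to −2.34 in the last, and the all-reads medians stay near 0.

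The 2 experiments were compared through the interaction of treatment and experiment. In all reads none of 15653 genes passed the threshold in edgeR (0%), with 1046 at an unadjusted p under 0.05. The lower calls had lower medians in experiment 2. Over the 1544 lower calls the median was −0.99 in experiment 1 and −1.37 in experiment 2, and 1267 of them had the larger fall in experiment 2. Over all genes tested the median log2 difference, experiment 2 minus experiment 1, was −0.02. The lower calls were chosen in a fit of these same libraries, so the count of 1267 may in part reflect that choice. In experiment 1 alone 297 genes were called lower and 7 higher, and in experiment 2 alone 1887 and 1068. In T>C reads 21 of 12242 genes passed (0.172%), 20 of them lower in experiment 2. Those of smallest p included MYC, FAM193B, DENND5A and HS3ST1. MYC had 562, 483, 1693 and 1521 CPM of T>C reads in DMSO and 270.1, 219, 70.4 and 60.1 CPM after NVP-2, which are CPM scaled within T>C reads. Its log2 difference, experiment 2 minus experiment 1, was −3.53 (edgeR adjusted p 0.0364). The labelled share of MYC after NVP-2 was 33.9, 38.1, 7.68 and 11.6%, higher in both libraries of experiment 1 than in both of experiment 2. Without any of 6 of the libraries no gene passed, and without NVP-2 library 2.1 or 2.2 there were 993 or 887 genes lower in experiment 2, so these calls depend on single libraries.

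CB-6644, which inhibits the ATPase RUVBL1/2, was the other inhibitor given to this line for 4 h. Its 4 libraries had a labelled read share of 11.7% ± 0.684 (SD, n = 4). Because both inhibitors share their DMSO libraries, they were compared directly. In all reads 1031 of 15700 genes were lower after NVP-2 than after CB-6644 (6.57%) and 165 higher (1.05%). Of the lists, 23 of 26 immediate-early genes, 10 of 13 ERK feedback genes, 8 of 12 AP-1 factors and 11 of 20 epithelial and basal factors were lower than after CB-6644. The 5 genes of smallest p were MIR17HG (−4.98), OVOL1 (−2.88), GADD45B (−2.64), U1 (6.84) and ID2 (−2.66), given as log2 differences of NVP-2 minus CB-6644. GADD45B is a stress-response gene and ID2 an inhibitor of helix-loop-helix factors. MIR17HG had 41.5, 39.2, 52.8 and 54.4 CPM after CB-6644 and 1.74, 1.34, 1.75 and 1.07 after NVP-2 in this fit, with no overlap.

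NVP-2 was also given for 4 h to AsPC-1, a classical-subtype line with the same kind of KLF5 replacement. There the labels put the 4 NVP-2 libraries in batch 2 and the 5 DMSO libraries of 4 h in batch 1, so between these groups batch and treatment cannot be told apart. Batch 2 also held 4 DMSO libraries of 12 h and 4 NEG libraries of 4 h (experiment 3). The labelled read share was 10.1% ± 0.624 (SD, n = 5) in DMSO and 1.57% ± 0.239 (SD, n = 4) after NVP-2. In the other groups of batch 2 it was 9.24% ± 0.566 (SD, n = 4, DMSO 12 h) and 9.03% ± 1.01 (SD, n = 4, NEG), and no library of either overlapped with NVP-2. The difference of the treatment effects between the lines was tested as an interaction in all reads, and 1 of 16702 genes passed (0.00599%), with 1508 at an unadjusted p under 0.05. It was FLRT3, an adhesion receptor gene. FLRT3 had 3.19, 2.42, 2.76 and 2.7 CPM in DMSO and 2.06, 2.0, 2.3 and 2.09 after NVP-2 in T3M-4, and 14.8, 17.1, 13.6, 19.1 and 20.4 and 4.78, 3.73, 4.11 and 3.38 in AsPC-1. The log2 difference, T3M-4 minus AsPC-1, was 1.70 (edgeR adjusted p 0.0447), and no gene passed with the 12 h DMSO libraries of batch 2 as AsPC-1 controls, 3 passed with its NEG libraries, and none passed without any of 6 of the T3M-4 libraries. Side by side, the list medians in this fit were −2.92 in AsPC-1 and −2.42 in T3M-4 for ERK feedback genes, −2.60 in AsPC-1 and −2.31 in T3M-4 for immediate-early genes, −1.72 in AsPC-1 and −1.38 in T3M-4 for AP-1 factors and −0.18 in AsPC-1 and 0.18 in T3M-4 for basal-like identity genes. MIR17HG stood at −4.42 in AsPC-1, MYC at −3.70, MCL1 at −2.17 and KLF5, counted in the same 3′UTR as above, at −2.11.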

How the data were processed

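SLAM-seq was performed by the authors with QuantSeq 3′ libraries, prepared from alkylated RNA of 4-thiouridine-labelled cells and sequenced single-end. Reads were mapped to hg38 and counted by the authors over GENCODE v44 3′UTR exons with slamdunk at default settings; its version was not given in the sources used here. The deposited counts are raw read counts per gene, of all reads and of reads with T>C conversions. Of the genes tested in all reads, 1391 had counts in every library that shared a divisor above 1, so their reads may have been counted more than once. The tables held 18 empty unnamed columns, which were not used.

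Counts were tested with edgeR 4.0.16 in R 4.3.3 (filterByExpr, TMM, quasi-likelihood test, experiment as a block, Benjamini-Hochberg adjustment over all genes tested, threshold 0.05). The SE was the log2 fold change over the square root of F. CPM were of the TMM-scaled totals, except in marker sums. T>C counts were also scaled by the TMM-scaled size of all reads. The labelled read share was compared with an exact permutation test (scipy 1.17.1). DESeq2 1.42.0, other scalings, filters, blocks and leaving out each library were tried as alternatives, and the fits were checked on simulated counts. Depth is given with the results; the limit on a share of 0 is 3 counts and covers counting error only, since the reads carry no molecular identifiers.

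The experiment number pairs the libraries as the labels' batch does, and deviations from the group means correlated at 0.187 to 0.605 between NVP-2 and DMSO libraries of the same experiment and at −0.543 to −0.193 between those of different experiments. The deviations of a group sum to 0 for each gene. The negative range is therefore tied to the positive one and adds no separate support. No libraries held identical counts, and libraries of a group correlated at 0.947 to 0.982. Members and gene lists were chosen with earlier results of these data known. Named genes were members of those lists, the 15 lowest and 15 highest log2 fold changes in all reads and the 10 lowest and 10 highest in T>C reads among genes called with a mean of at least 10 CPM in the higher group and the same sign in both experiments, and the 5 called genes of smallest p in each further test. Of the genes so chosen, 2 are not reported here. KRT17 and EPCAM T>C values, gene length and the transfer RNA genes were chosen after their values were seen.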

Additional observations from a re-analysis of the deposited data

Results flagged for a closer look

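Of 66 groups of 4 libraries examined for a library far from the other three, 5 had one, and chance gives about 1 in 20. NVP-2 library 2.1 had 244525000 reads in all, the most of its group. Among genes, DMSO library 1.1 stood apart for ZFP36 (4.73 CPM, the lowest of its group), CCNT2 (13.4 CPM, the highest) and TP63 (16.6 CPM, the lowest), and DMSO library 1.2 for RN7SK (0.190 CPM, the lowest).

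The effect of NVP-2 on T>C reads differed between the experiments for MYC, HS3ST1, FAM193B and DENND5A, named by smallest p (edgeR interaction test, adjusted p 0.0364 for each). The log2 difference, experiment 2 minus experiment 1, was −3.53 for MYC and −3.75 for HS3ST1. The fitted differences of −12.3 for FAM193B and −12.2 for DENND5A rest on 0 T>C CPM in both NVP-2 libraries of experiment 2 and depend on the prior count, so they are no bounds. In the NVP-2 libraries of experiment 1, FAM193B had 20.5 and 21.2 T>C CPM and DENND5A 53.4 and 37.4. HS3ST1 had 112 and 103 T>C CPM after NVP-2 in experiment 1 and 12.1 and 7.57 in experiment 2.

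The effect of NVP-2 on all reads differed between the lines for FLRT3, by 1.70 on the log2 scale, T3M-4 minus AsPC-1 (edgeR adjusted p 0.0447). The 4 h DMSO libraries of AsPC-1 are in another batch than its NVP-2 libraries, and with controls of the same batch 0 genes (DMSO 12 h) or 3 genes (NEG) passed.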

How the results depend on the processing

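In all reads, 1544 genes were lower and 932 higher. With no replicate block there were 769 and 38, in experiment 1 alone 297 and 7, at a mean of at least 10 CPM 649 and 339, and scaled by stable gene lists 2567 and 98; DESeq2 called 1717 higher and library totals 189. With counts summed per experiment and no replicate block 0 were lower and 0 higher, in all reads (1188 at an unadjusted p under 0.05) and in T>C reads (3495). In T>C reads, 2216 lower and 1763 higher became 1151 and 926 when summed with the replicate block, 1225 and 1144 in experiment 2 alone, 3675 and 936 with library totals, and 10955 and 13 scaled by all reads. That last scaling is relative to the whole pool and turned the sign of TP63 (−2.27), KRT5 (−0.24), MT-RNR2 (−0.28), MT-RNR1 (−0.34), KRT17 (−0.44) and EPCAM (−0.17). The difference by experiment gave 27 lower and 3 higher in all reads with no filter, and 227 and 4 in T>C reads scaled by all reads. Against CB-6644, 543 were lower and 12 higher with no replicate block. By line, 0 were higher with the 12 h controls of AsPC-1 and 3 with its NEG controls. The labelled share difference was −11.2 points in experiment 1, −9.11 in experiment 2 and −10.2 with the replicate block, where the designs cannot reach the threshold, and −14.7 as a median over genes.

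Without each library in turn, genes lower in all reads ranged from 1104 to 1585 and higher from 269 (without DMSO library 2.2) to 1239 (without NVP-2 library 1.1); in T>C reads lower from 1402 to 2371 and higher from 1263 to 1826; by experiment in all reads lower from 0 to 2, and in T>C reads lower from 0 to 993 and higher from 0 to 197; against CB-6644 lower from 684 to 993 and higher from 31 to 293; by line higher from 0 to 2; and the share difference from −10.6 to −9.60 points. Of the fold changes of named genes in all reads, 1191 kept their side of the threshold without a library, 78 lost it and 3 passed it, and none turned sign. Under the other settings 1549 kept their side, 265 lost it and 23 passed it, and none turned sign. Except where a setting holds fewer libraries or genes, the cause was not tested. Blocking by the full replicate number gave 1530 lower and 1096 higher in all reads. Few T>C reads after NVP-2 limit T>C values of low genes.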
